A study of Homo sapiens with 6 samples.

Results

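The genes described here are the human chaperones, disulfide enzymes, degradation factors and stress sensors of the endoplasmic reticulum (ER). They were taken from a fixed list of 41 names, matched by gene symbol to the rows of the deposited tables. VIMP is the older name of SELENOS, so the list held 40 distinct genes, and 30 of them were among the 7681 genes that the authors listed as changed. The study compared untreated HCT116 cells, a human colorectal carcinoma line, labelled Rab27B KO (3 cultures, described by the submitters as deleted for RAB27B with CRISPR/Cas9) with those labelled wild type (3 cultures). All cultures were grown for 48 hours before RNA sequencing, and whether the cells labelled Rab27B KO were 1 clone or a pool is not given in the labels. The stated question was what silencing of RAB27B, a GTPase that docks secretory vesicles, does to these cells, with autophagy named in the study title. The data analysed here were the authors' 2 tables of genes higher and lower, each with the log2 ratio of Rab27B KO to wild type and a q-value below 0.05. Values per sample were not analysed here, so depth, the spread between replicates and any overlap of the groups are unknown, and no error can be put on a fold change. A gene called not listed may have been unchanged, below detection or never tested.

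Secreted and membrane proteins fold in the ER with the help of chaperones, of disulfide isomerases that pair cysteines, and of lectins that read N-linked sugars. Chains that fail are drawn out through membrane ligase complexes and destroyed by the proteasome, a route called ER-associated degradation (ERAD). When unfolded chains build up, the membrane proteins IRE1 (gene ERN1), PERK (EIF2AK3) and ATF6 start the unfolded protein response (UPR). IRE1 splices the XBP1 mRNA, PERK slows translation, and ATF6 moves to the Golgi, where site-1 and site-2 proteases (MBTPS1 and MBTPS2) free its transcription factor part. ATF6 and spliced XBP1 then switch on chaperone and ERAD genes through promoter elements. The best known is the ER stress response element (ERSE), read as CCAAT, any 9 bases and CCACG, and a shorter form, ERSE-II, joins ATTGG and CCACG across 1 base.

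The promoters that carry a full element are shown first. All 9 members that hold one were listed as higher. Of the 28 members with a window but no full element 18 were higher, 2 lower and 8 not listed, so most listed members were higher with or without one. RefSeq windows of 250 bases before to 50 bases after an annotated start (GRCh38.p14) were found for 37 of the 40 genes, all but DERL1, DERL3 and FKBP14, and both strands were searched. In the stretches below, read 5′ to 3′ on the gene's strand, capitals mark the CCAAT and CCACG parts of each match or their reverse complements, ATTGG and CGTGG. All printed bases lie upstream of the start. HSPA5 is at chr9:125241381-125241419 (minus strand), XBP1 at chr22:28800593-28800631 (minus), PDIA6 at chr2:10812843-10812881 (minus, at the downstream one of its 2 annotated starts in the table), CRELD2 at chr22:49918544-49918582 (plus) and ERO1B at chr1:236282173-236282208 (minus). HSP90B1 is at chr12:103930206-103930349 (plus) and holds 2 matches. The ERSE-II matches are those of HERPUD1 at chr16:56932015-56932045 (plus), SDF2L1 at chr22:21642104-21642134 (plus) and HYOU1 at chr11:119057264-119057400 (minus), which holds 2.
HSPA5: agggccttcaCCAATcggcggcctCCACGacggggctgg
XBP1: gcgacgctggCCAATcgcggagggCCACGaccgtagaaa
PDIA6: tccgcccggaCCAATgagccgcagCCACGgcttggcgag
CRELD2: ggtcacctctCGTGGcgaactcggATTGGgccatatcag
ERO1B: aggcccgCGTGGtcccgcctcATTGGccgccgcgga
HSP90B1: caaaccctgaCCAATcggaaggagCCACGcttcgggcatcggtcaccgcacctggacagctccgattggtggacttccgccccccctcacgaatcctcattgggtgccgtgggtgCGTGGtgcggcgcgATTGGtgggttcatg
HERPUD1: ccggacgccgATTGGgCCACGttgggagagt
SDF2L1: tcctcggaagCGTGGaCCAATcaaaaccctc
HYOU1: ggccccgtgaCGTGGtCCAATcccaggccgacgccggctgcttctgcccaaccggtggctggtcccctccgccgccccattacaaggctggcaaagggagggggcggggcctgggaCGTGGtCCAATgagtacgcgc

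The RNA of the targeted gene was higher, not lower, in the cells labelled as its knockout. RNA alone does not show whether the protein was lost, and protein was not analysed here. RAB27B RNA was 36.71-fold higher in the cells labelled Rab27B KO per the authors' deposited table (log2 fold change 5.20, q-value listed as 0). Every direction below is therefore that of the cells labelled Rab27B KO relative to the cells labelled wild type, as the column headers give it. Whether labels or ratio were exchanged was not tested, and an exchange would turn every rise below into a fall and every fall into a rise. Of 15 colon epithelial markers 10 were listed, 4 higher and 6 lower, with a median log2 fold change of -0.79 and a range from -6.46 (MUC13) to 2.08 (KRT20) per the authors' deposited table. The gut transcription factor gene HNF4A stood at -2.97 per the authors' deposited table. The keratin genes KRT8 and KRT18 had log2 fold changes of 0.61 and 0.47, and the epithelial adhesion genes EPCAM and CDH1 had -1.15 and -1.15, per the authors' deposited table. Of 8 markers of plasma cells, whose ER is highly developed, 1 was listed, SDC1 at a log2 fold change of 0.23 per the authors' deposited table. Of 8 goblet and Paneth cell markers 2 were listed (LYZ higher, FCGBP lower), and of 6 fibroblast markers 2 (COL3A1 higher, COL1A1 lower). Their levels were not analysed here, so which of these markers were at 0 is unknown, and their part in the results was not tested.

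Most ER chaperone and UPR genes were higher, by modest amounts. Of the 40 genes 28 were listed as higher and 2 as lower, and 10 were not listed. Among all 20043 RefSeq protein-coding genes 37.9% were listed, 19.2% as higher and 18.7% as lower, and among all listed genes 50.7% were higher. Not every protein-coding gene is expressed in HCT116, so 37.9% understates the share among expressed genes. The median log2 fold change was 0.51 over the 30 listed members and 0.12 over all 7681 listed genes. With 50.7% of all listed genes higher, the 0.12 lies at the border between rises and falls and is not a typical size. The 28 higher members had a median of 0.53, which is 1.45-fold, and the middle part of their range (between the quartiles) ran from 0.38 to 0.77, against a median of 0.41 over all 3898 higher genes. At a q-value below 0.01 the split was 28 higher and 1 lower, with 51.1% of all such listed genes higher. The changes were modest in size: 15 reached a log2 change of 0.5 and only EDEM2 reached 1, at 1.02 per the authors' deposited table. Of all listed higher genes 38.7% reached 0.5 and 12.0% reached 1. A q-value below 1e-20 was given to 13 of the 30 listed members and to 14.8% of all listed genes. Expression levels were not analysed here, so how far small q-values go with high levels rather than with large changes is unknown.

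**Figure D1:**
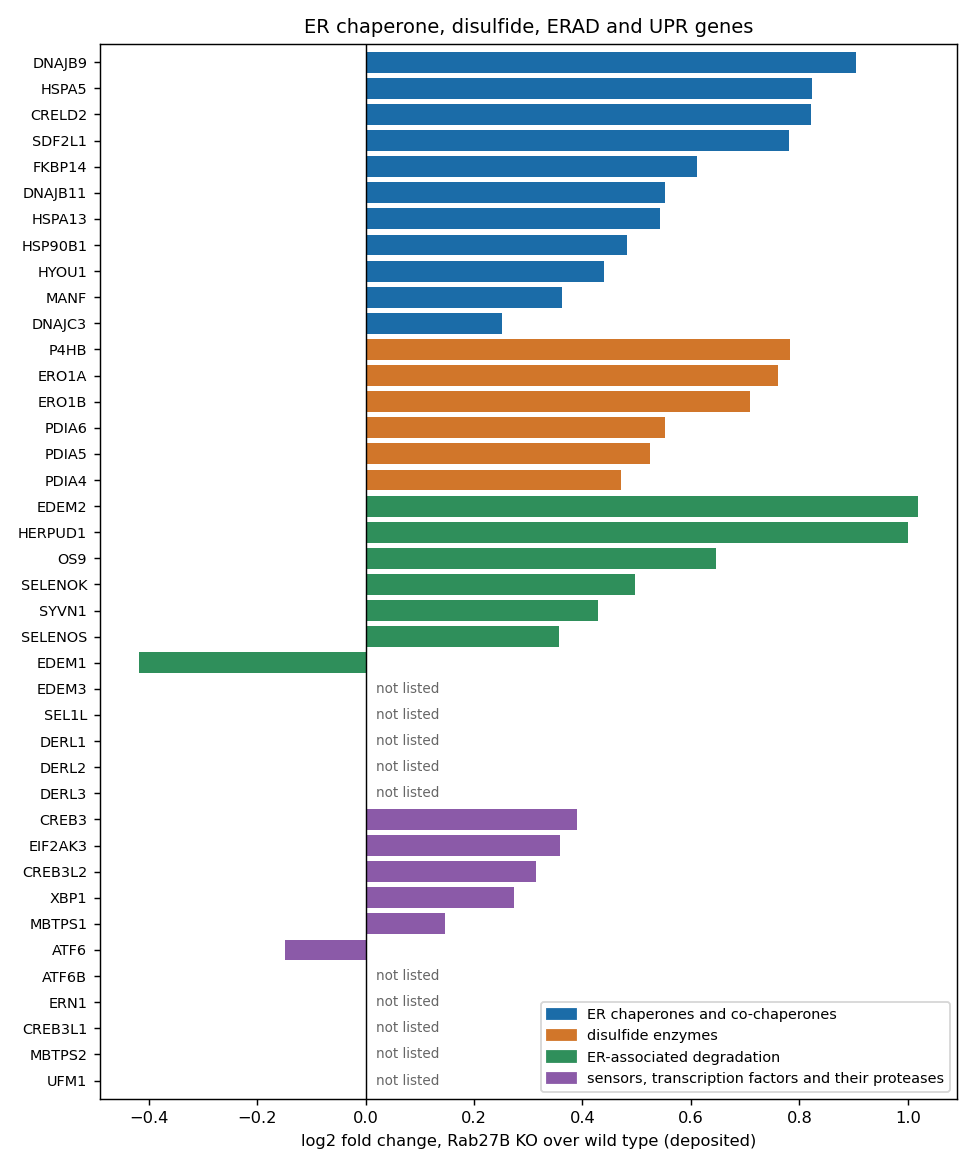
Deposited log2 fold changes of Rab27B KO over wild type for the 40 genes, grouped and coloured by role, with genes in neither table marked as not listed. All 11 chaperones and all 6 disulfide enzymes point to the right, and EDEM1 and ATF6 are the 2 bars that point to the left.

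The chaperones of the ER lumen were all higher. Each of the 11 was listed, with log2 fold changes from 0.25 to 0.90 and a median of 0.55. HSPA5 (gene ID 3309; GRCh38.p14 chr9:125234853-125241343) encodes BiP, the ER Hsp70 that binds unfolded chains and holds the UPR sensors inactive. It has 1 pseudogene by name, HSPA5P1, that could share reads. HSPA5 was 1.77-fold higher with a q-value of 3.69e-164, rank 61 of 7681 by q-value, per the authors' deposited table. HSP90B1, the ER Hsp90 also called GRP94, was 1.40-fold higher (q = 5.32e-57) per the authors' deposited table. HYOU1, which exchanges nucleotide on BiP, was 1.36-fold higher (q = 7.91e-38) per the authors' deposited table. The core Hsp70 and Hsp90 machinery therefore moved in 1 direction, BiP by the most.

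BiP works with J-domain proteins, and the 3 in the list differed in size. DNAJB9 (ERdj4), which in mammalian cells also restrains IRE1, had the largest value of the chaperones, 1.87-fold higher (q = 1.66e-16) per the authors' deposited table. DNAJB11 (ERdj3), which delivers clients to BiP, was 1.47-fold higher (q = 3.53e-23) per the authors' deposited table. DNAJC3 (p58IPK) had the smallest value of the chaperones at 1.19-fold higher (q = 0.00023) per the authors' deposited table. The DNAJB11 partner SDF2L1, a small ER protein, was 1.72-fold higher (q = 4.78e-22) per the authors' deposited table.

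The remaining chaperone members were higher too. CRELD2, a secreted ER stress protein with EGF-like repeats, was 1.77-fold higher (q = 1.01e-26), almost the same fold as BiP, per the authors' deposited table. MANF, a BiP-binding protein that can be secreted under stress, was 1.29-fold higher (q = 3.47e-11) per the authors' deposited table. HSPA13, an Hsp70-like protein of microsomes, was 1.46-fold higher (q = 4.52e-15) per the authors' deposited table. FKBP14, a prolyl isomerase of the ER, was 1.53-fold higher (q = 6.07e-08) per the authors' deposited table. CRELD2 and MANF, often named together as secreted markers of ER stress, thus differed in log2 fold change, 0.82 against 0.36 per the authors' deposited table, a difference that could not be tested without values per sample.

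**Figure D2:**
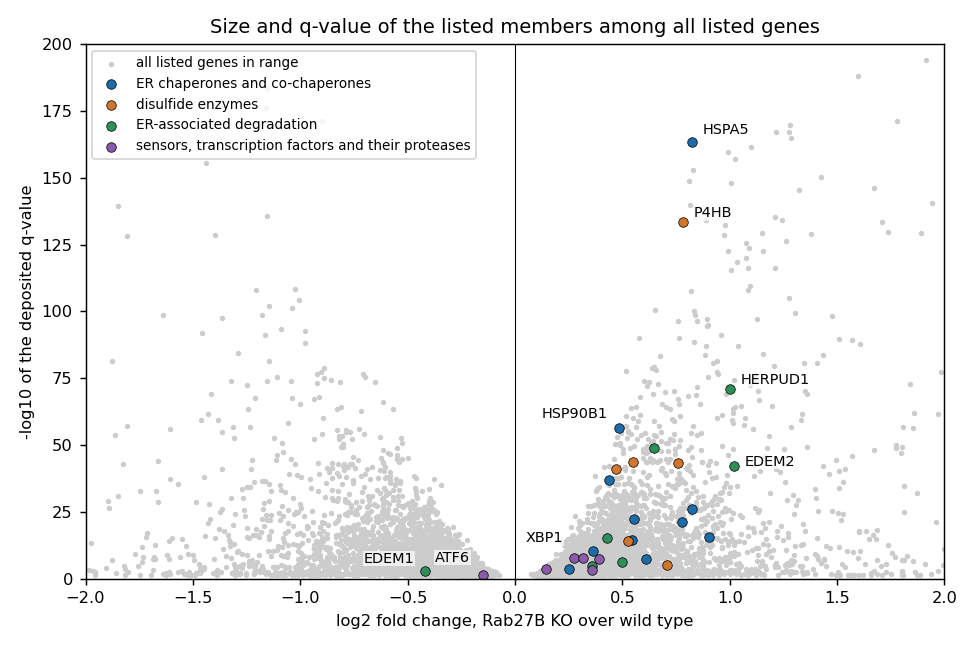
Deposited log2 fold change (x axis) against -log10 of the deposited q-value (y axis) for listed genes, members coloured by role over all other listed genes in grey. The axes hold 7322 of the 7681 listed genes, and the other 359 lie outside them or have a q-value listed as 0. HSPA5 and P4HB have the smallest q-values of the members, and EDEM1 and ATF6 lie left of 0 near the bottom.

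The enzymes of disulfide bond formation formed the second group in which every member was higher. All 6 were listed, with log2 fold changes from 0.47 to 0.78 and a median of 0.63. P4HB (gene ID 5034; GRCh38.p14 chr17:81843166-81860535), the classical protein disulfide isomerase, was 1.72-fold higher with a q-value of 3.69e-134, rank 84 of 7681, per the authors' deposited table. Its relatives were closer to each other: PDIA6 was 1.47-fold, PDIA5 1.44-fold and PDIA4 1.39-fold higher per the authors' deposited table (q = 3.03e-44, 9.16e-15 and 9.96e-42). ERO1A and ERO1B are the oxidases that recharge the isomerases. ERO1A, which hypoxia also induces, was 1.69-fold higher (q = 4.07e-44) per the authors' deposited table. ERO1B was 1.63-fold higher (q = 6.09e-06) per the authors' deposited table, so the paralogs had nearly equal folds but q-values far apart. Some reads of 2 of these genes could belong to neighbours: in GENCODE 29, PDIA6 shares 25.2% of its exon bases with ATP6V1C2 on the other strand, and PDIA5 shares 12.2% with SEC22A on its own strand, which stood at a log2 fold change of 0.44 per the authors' deposited table.

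ERAD genes were split between high values, a lower value and genes that were not listed. Of 12 genes 6 were higher, 1 was lower and 5 were not listed. EDEM2 (gene ID 55741; GRCh38.p14 chr20:35115364-35147336), the mannosidase that starts the trimming of sugars on chains bound for ERAD, was 2.03-fold higher (q = 4.51e-43), the largest change of all 40 genes per the authors' deposited table. HERPUD1 (gene ID 9709; GRCh38.p14 chr16:56932142-56944864), a short-lived scaffold of the HRD1 ligase complex, followed at 2.00-fold higher (q = 1.04e-71) per the authors' deposited table. EDEM1 (gene ID 9695; GRCh38.p14 chr3:5187707-5219958), an EDEM paralog that also hands misfolded glycoproteins to ERAD, was instead 1.34-fold lower (q = 0.000852) per the authors' deposited table, and EDEM3 was not listed. The EDEM family thus held the largest rise and the largest fall among the members.

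The HRD1 complex itself was unevenly represented. SYVN1, which encodes the ligase HRD1, was 1.35-fold higher (q = 6.03e-16) per the authors' deposited table. OS9, the lectin that brings sugar-bearing clients to the complex, was 1.57-fold higher (q = 1.07e-49) per the authors' deposited table. SEL1L, the adaptor that joins OS9 to HRD1, was not listed, and neither were DERL1, DERL2 and DERL3, the derlins of the exit channel. The membrane selenoproteins SELENOS, which recruits the ATPase VCP, and SELENOK, its partner, were 1.28-fold (q = 2.13e-05) and 1.41-fold (q = 6.68e-07) higher per the authors' deposited table. SELENOK has 3 pseudogenes by name that could share reads. Of the exon bases of DERL3 77.0% are shared with SMARCB1 on the other strand, and whether the counting used strand is not given, so its absence from the tables cannot be read.

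The sensors, transcription factors and their proteases had the smallest median change of the role groups with listed genes. Of 10 genes 5 were higher, 1 was lower and 4 were not listed, with a median log2 fold change of 0.29 over the 6 listed. None reached a log2 change of 0.5. ATF6 (gene ID 22926; GRCh38.p14 chr1:161766320-161964070) was 1.11-fold lower (q = 0.0345) per the authors' deposited table, and its paralog ATF6B was not listed. XBP1 (gene ID 7494; GRCh38.p14 chr22:28794560-28800569) was 1.21-fold higher (q = 1.78e-08) per the authors' deposited table. XBP1 has 1 pseudogene by name, XBP1P1, that could share reads. A total per gene does not separate spliced from unspliced XBP1 mRNA, so it does not measure IRE1 activity. IRE1 itself, ERN1, was not listed. EIF2AK3, which encodes PERK, was 1.28-fold higher (q = 0.000551) per the authors' deposited table. Messenger RNA of a sensor says nothing of its activation, which happens by oligomerisation or cleavage of the protein.

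The CREB3 family, which like ATF6 is freed from the membrane by cleavage, was mixed. CREB3 was 1.31-fold (q = 3.2e-08) and CREB3L2 1.24-fold (q = 1.19e-08) higher per the authors' deposited table, and CREB3L1 was not listed. MBTPS1, the site-1 protease, was 1.11-fold higher (q = 0.000177) per the authors' deposited table, the smallest rise of any member, and MBTPS2 was not listed. UFM1, a ubiquitin-like modifier of ER-bound ribosomes that has 3 pseudogenes by name, was not listed. The median of the 6 listed sensors, transcription factors and proteases, 0.29, was thus below the 0.55 of the chaperones. Their ranges overlapped, -0.15 to 0.39 against 0.25 to 0.90, and no test of this difference could be made.

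Genes of the same compartment outside the list were described in the same way. Of 47 other ER folding factors 27 were listed, 21 higher and 6 lower. Their median log2 fold change was 0.24, with a range from -4.15 to 0.68. Genes are named by smallest q-value, so the gene at -4.15 is not among those below. The lectin chaperone gene CALR was 1.56-fold and the calcium-binding CALU 1.58-fold higher, and the calcium-binding RCN1 was 1.35-fold and the prolyl isomerase FKBP9 1.20-fold lower, per the authors' deposited table. Of 41 other ERAD factors 27 were listed, 19 higher and 8 lower, with a median of 0.22. FBXO2, a sugar-binding ligase subunit, was 1.66-fold and NPLOC4, a VCP cofactor, 1.35-fold higher, while UBAC2 was 1.31-fold and UBXN4 1.17-fold lower, per the authors' deposited table. The share of listed genes that were higher was 77.8% and 70.4% in these lists, 93.3% in the members and 50.7% in all listed genes. Members and lists were chosen with earlier results of these data known, so this order is a description only.

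Genes for entry into the ER and for adding sugars were also listed mostly as higher. Of 26 import and signal peptide genes 19 were listed, 13 higher (68.4%) and 6 lower, with a median log2 fold change of 0.22. SSR1 of the translocon was 1.40-fold and the signal recognition receptor SRPRA 1.33-fold higher, and the signal peptidase SEC11A was 1.45-fold and SRP72 1.13-fold lower, per the authors' deposited table. Of 12 oligosaccharyltransferase genes 9 were listed, 8 higher (88.9%) and 1 lower, with a median of 0.32. DDOST and RPN2 were 1.30-fold and 1.31-fold higher per the authors' deposited table. The lower gene, TUSC3, stood at -2.04 on the log2 scale (q = 0.0458), close to the threshold, per the authors' deposited table.

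Of the 8 other genes of the UFM1 pathway 4 were listed and all 4 were lower, with log2 fold changes from -0.24 to -0.19. UFC1, which carries UFM1 to its target, was 1.15-fold and CDK5RAP3 1.14-fold lower per the authors' deposited table. With 49.3% of all listed genes lower, 4 genes are too few to read a direction for the pathway.

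All 10 genes of the PERK and ATF4 arm were listed, 9 higher (90.0%) and 1 lower, against 50.7% higher among all listed genes. Their median log2 fold change was 0.47, with a range from -0.13 to 2.18. DDIT3 (CHOP) was 3.49-fold and CHAC1, which breaks down glutathione, 2.82-fold higher per the authors' deposited table. The lower gene was PPP1R15B, a subunit of the eIF2α phosphatase, at 1.10-fold lower (q = 0.0436) per the authors' deposited table. ATF4 also answers to kinases other than PERK. Of 10 IRE1 partners and other membrane-bound factors 7 were listed, 4 higher (57.1%, near the 50.7% of all listed genes) and 3 lower. CREB3L3 was 3.99-fold higher and CREB3L4 1.88-fold lower per the authors' deposited table, opposite directions in the CREB3 family. MAP3K5 (ASK1), a kinase downstream of IRE1, was 1.40-fold higher and RTCB, the ligase that joins spliced XBP1 mRNA, 1.21-fold lower per the authors' deposited table.

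**Figure D3:**
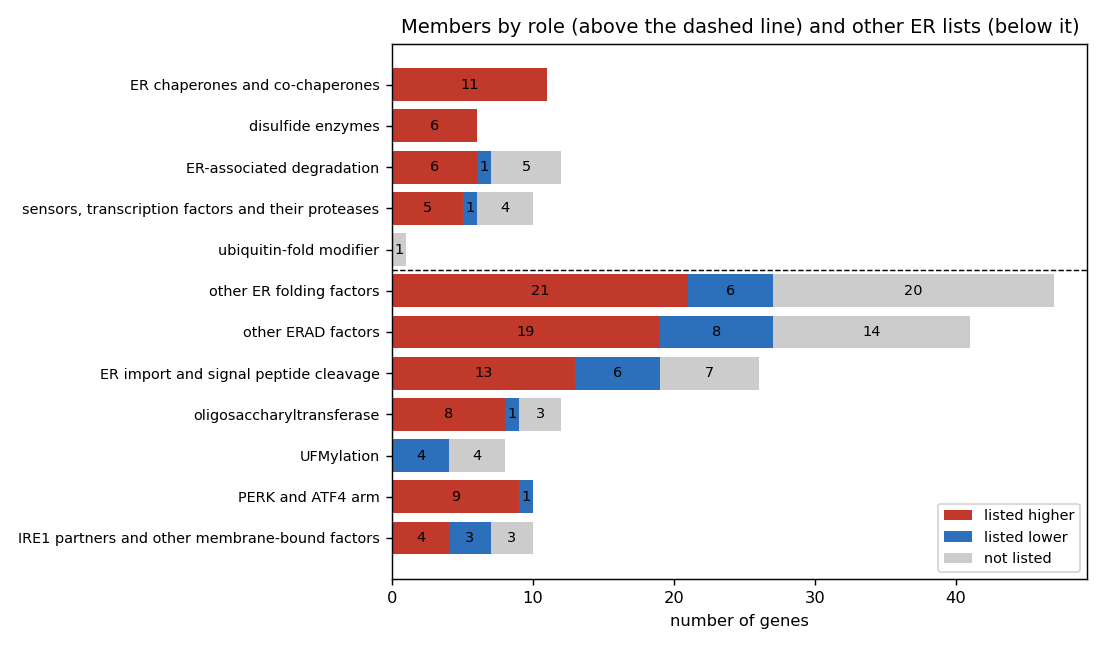
Number of genes listed as higher, listed as lower and not listed, for the members by role (above the dashed line) and for 7 other ER lists (below it). The chaperones and disulfide enzymes are the 2 role groups with every gene listed as higher, and the UFMylation list has none higher.

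Transcript length and chromosome went with direction over all listed genes, so the members were also set out by both. With listed genes divided into equal parts by their longest coding transcript, 69.2% of short, 49.5% of middle and 33.8% of long ones were higher. The members gave 11 of 11, 12 of 12 and 5 of 7. The median log2 fold change of the listed members was 0.52 in the short, 0.55 in the middle and 0.32 in the long part, against 0.29, -0.12 and -0.27 for all listed genes. The medians of all listed genes largely restate the shares that were higher. Both lower members, EDEM1 and ATF6, have long transcripts, and so do 3 of the 10 members not listed. On chromosomes 4, 7, 13 and 15 only 22.9% of listed genes were higher. Of the 7 members there 6 were higher (DNAJB9, DNAJC3, FKBP14, PDIA4, SELENOS and CREB3L2), none was lower and 1, UFM1, was not listed. On the other chromosomes the split was 22 higher and 2 lower, against 55.4% of listed genes higher. How chromosomes 4, 7, 13 and 15 were picked is not recorded here. The contrast between 22.9% and 55.4% may therefore partly follow from that choice.

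**Figure D4:**
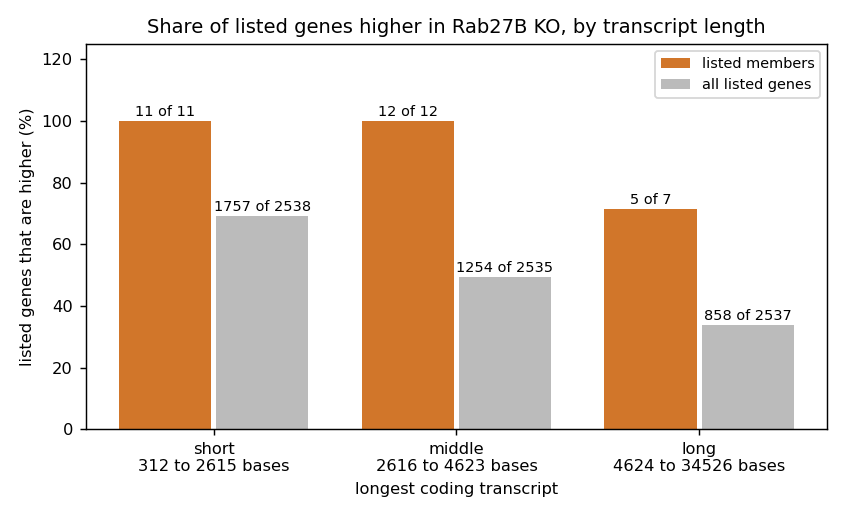
Share of listed genes that were higher in Rab27B KO, for members (orange) and all listed genes (grey), in 3 equal parts by the length in bases of the longest coding transcript, with counts above the bars. The share falls with length for all listed genes, and the members lie above it in each part.

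Full promoter elements were held by 9 of the 37 members with a window, or 24.3%, against 36 of 15843 protein-coding genes, or 0.227%. The 36 include the 9 members. This excess, like those for single motifs below, comes from the genome sequence and from a list made of known UPR genes. It is not a result of the expression data. All 9 were higher, with log2 fold changes from 0.27 (XBP1) to 1.00 (HERPUD1) and a median of 0.71. The 28 members without one included 18 higher, 2 lower and 8 not listed, with a median of 0.45 over the listed. ERSE was held by 6 members (16.2%, against 0.133% of protein-coding genes) and ERSE-II by 3 (8.11%, against 0.0947%). The CCAAT part alone was in 73.0% of members and 42.1% of protein-coding genes, and CCACG alone in 70.3% and 50.2%. The UPRE core TGACGTG was in 1 member, HYOU1, where it overlaps the upstream ERSE-II, and in 2.75% of protein-coding genes. With any 1 base of CCACG free, which was tried after the strict matches were seen, ERSE was in 29.7% of members and 1.58% of protein-coding genes. Of the genes with the largest rises, HERPUD1 holds ERSE-II and EDEM2 holds none of the motifs searched.

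**Figure D5:**
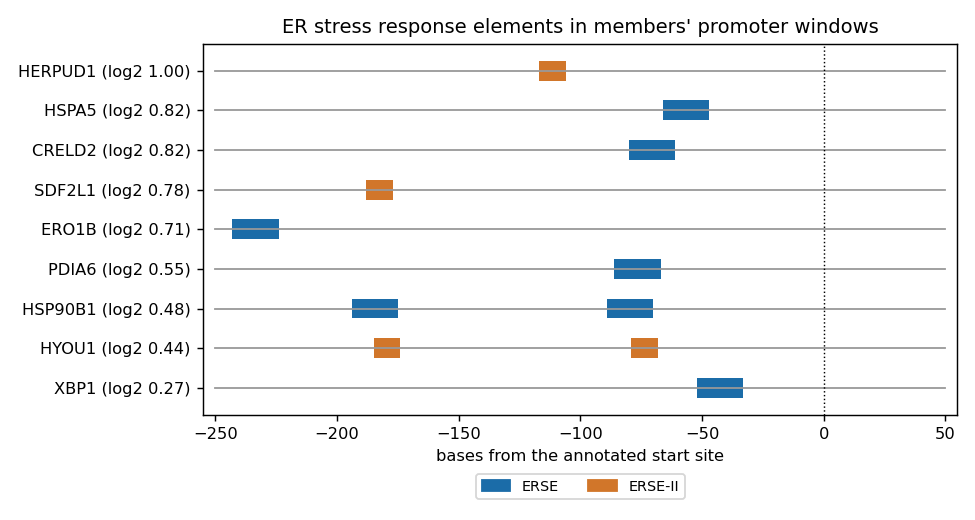
Place of ERSE (blue) and ERSE-II (orange) matches in the promoter windows of the 9 members that hold one, in bases from the annotated start, ordered by deposited log2 fold change. HSP90B1 and HYOU1 hold 2 matches each, and all matches lie upstream, from the -243 of ERO1B to the -34 of XBP1.

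The same elements were then looked up outside the list. Of 36 protein-coding genes with either element 24 were listed, 23 higher and 1 lower, against 50.7% higher among the 6189 listed protein-coding genes with a window. Without the 9 members these were 14 higher and 1 lower. Among the 14, chosen after their values were seen, were CALR and CANX, the lectin chaperones, at log2 fold changes of 0.64 and 0.24, and FICD, which modifies BiP, at 1.18, per the authors' deposited table. NUCB1, a Golgi calcium-binding protein that restrains ATF6, stood at 0.43 and SERP1, a translocon-associated stress protein, at 0.22 per the authors' deposited table. The lower gene was TRIM5 at -0.33 per the authors' deposited table. The rest of the 14 held the largest rise, NLRP4 at 2.15, and SHCBP1 at 0.82, NAV2 at 0.65 and CAMTA1 at 0.52 per the authors' deposited table. TMEM120A, GYS1, PLS3, RUVBL2 and SETD3 stood between 0.36 and 0.49 per the authors' deposited table. Some of the 14 are in none of the ER lists used here, such as GYS1 and RUVBL2, which share 1 match between neighbouring starts. A match is a description of sequence, and binding of ATF6 or XBP1 was not measured.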

How the data were processed

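RNA was sequenced in 6 HCT116 cultures, 3 labelled Rab27B KO and 3 wild type, grouped by their titles; the submitters call them biological replicates. Per the submitters' processing notes HISAT, Bowtie2 and GRCh38 were used. Tool roles, counting, use of strand, scaling and the authors' test were not given in the sources used here. Per the file headers, the deposited values are log2 fold changes of Rab27B KO over wild type, q-values, and, for higher genes, the linear ratio, which matched the log2 column within a relative difference of 4.53e-10. Every deposited q-value was below 0.05 (largest 0.0499963).

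No values per sample were analysed here, so the planned tests on samples were not made and the authors' q-values were used as deposited. Members and lists were chosen with earlier results of these data known. Named genes were all members and, per other ER list, the 2 smallest q-values in each direction. Gene IDs were matched to RefSeq GRCh38.p14 (7656 of 7681, and all 40 members), and transcript lengths came from GENCODE 29 (7610 genes). Coordinates are 1-based. A gene held a motif where any of its 300-base RefSeq windows did. The search for ERSE was checked on simulated sequences made of A and T. The other motifs and the counting code used for the results were not checked in this way. Protein sequences were not used here. Python 3.11.15, pandas 2.3.3 and matplotlib 3.10.9 were used.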

Additional observations from a re-analysis of the deposited data

How the results depend on the processing

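Of 40 recomputed counts and medians, 30 stayed within 1.5 times their value (medians: equal to 2 decimals) and 10 moved by more. A reversal could be scored only for the medians, none of which reversed, and not for the counts. At a q-value below 0.01 all 28 higher members stayed and 1 of the 2 lower ones did. That setting left 0 lower genes among the sensors, the oligosaccharyltransferase list and the PERK and ATF4 arm, and a median of 0.52 over the listed members. A log2 change of at least 0.5 left 15 higher and 0 lower members, and one of at least 1 left 1 and 0. Without chromosomes 4, 7, 13 and 15 there were 22 higher and 2 lower members with a median of 0.53. Matching by gene ID gave 28 and 2 again, and so did centring on the median of all listed genes (0.12). That median lies below the smallest rise of a member (MBTPS1 at 0.15 per the authors' deposited table), so no member could change direction. Leaving out HERPUD1 and HSPA5, both higher, gave 26 and 2 by subtraction alone. Leaving out the 6 members that share at least 10% of their exon bases with another gene (PDIA5, PDIA6, OS9, EIF2AK3, DERL3 and MBTPS2), chosen after seeing the data, gave 24 and 2. No paired analysis was possible because the tables hold no values per sample, and for the same reason leaving out replicates, another normalization, a low-count filter and pseudocounts were not run. Depth is unknown, so genes that were not listed cannot be called unchanged.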
